A study of Homo sapiens with 12 samples.

Results

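DNA replication and S phase genes were followed by step and by well in HepG2, an established human hepatoma line. The group holds 40 genes, found by their gene symbols in the deposited table of 26485 genes: those for origin licensing, the replicative helicase and its activation, the polymerases and primase, the clamp loader, Okazaki fragment maturation, deoxynucleotide synthesis, control of the G1 to S transition, and the fork checkpoint. All 40 passed the filter on low counts, as did 15289 genes in all. RNA was sequenced from 12 libraries, made from 4 stable lines with 3 wells (a, b and c) each. Lines Z2, Z5 and Z9 had received CRISPR vectors labelled sgZHX3-2, sgZHX3-5 and sgZHX3-9 and carry the genotype label ZHX3-depleted, while line Empty had received the empty CRISPR vector and is labelled WT. In all 4 lines the vector was delivered by lipofection and blasticidin selection began 48 h later, and all were kept in low-glucose DMEM with 10% serum. Whether a line was a pool or a clone is not given in the sources used here. Since the wells of a line are repeats of that line, the p-values measure the spread between wells, and a property of the single Empty line cannot be told apart from the effect of the vectors.

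A cell copies its DNA in S phase. In G1, the origin recognition complex with CDC6 and CDT1 loads the ring of MCM2 to MCM7 onto DNA. At the start of S phase MCM10, CDC45 and the GINS complex turn that ring into an active helicase, polymerase alpha with primase starts each strand, and polymerases epsilon and delta extend it, held to DNA by a clamp that the RFC complex loads. Transcription factors of the E2F family, freed when cyclin-dependent kinases phosphorylate the retinoblastoma protein, switch on many of these genes in late G1. Each library here is RNA from a whole well, so fewer cells in S phase and less RNA per cell cannot be told apart.

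Empty a had the lowest total, 50864744 counts, and Empty c the highest, 65428204 counts, with the labelled wells between them. Levels are given as CPM, which are read counts scaled to a common library total after TMM correction, for wells a, b and c in that order. The targeted gene ZHX3 had 34.9, 33.8 and 34.8 CPM in Z2, 33.5, 32.5 and 32.8 CPM in Z5 and 34.7, 33.5 and 34.8 CPM in Z9, against 32.96, 32.7 and 33.5 CPM in Empty, and the mean log2 fold change of the 3 labelled lines against Empty was 0.037 (SE 0.041, 95% interval -0.049 to 0.12, edgeR adjusted p = 0.544). A count per gene does not check for a small deletion or for the protein. All 9 hepatocyte and hepatoma markers were detected, with summed levels of 50360 to 54900 CPM in Z2, 52600 to 53030 CPM in Z5 and 49250 to 50290 CPM in Z9, against 55090 to 56160 CPM in Empty. Of the markers of other cell types, 3 of 7 fibroblast, 3 of 5 endothelial, 2 of 5 blood and 2 of 4 cholangiocyte genes passed the filter. Their summed levels over the wells were 42.5 to 56.5, 6.22 to 8.57, 43.2 to 73.3 and 456 to 505 CPM in that order, mostly from PDGFRB, ACTA2, PECAM1, CD68, SOX9 and EPCAM. The endothelial sum was 7.44 to 8.57 CPM in Z2, 6.64 to 6.89 CPM in Z5 and 7.26 to 8.28 CPM in Z9, against 6.22 to 6.395 CPM in Empty. Of its genes, CDH5 had 60 to 123 counts in the labelled wells, against 24, 40 and 19 in Empty. The sums of the other cell types overlapped between labelled and Empty wells. DCN and KDR were at 0 in every well, and PTPRC, CD3E, HBB, COL1A2 and CFTR had under 0.05 CPM. ALB, the albumin gene, had 11359, 12374 and 10818 CPM in Z2, 12191, 10971 and 11278 CPM in Z5 and 12541, 11763 and 11618 CPM in Z9, against 18437, 17208 and 16944 CPM in Empty. ALB and APOB lay below all Empty wells in all 9 labelled wells. SERPINA1, APOA1 and FGB, which encode other plasma proteins, lay above all Empty wells in all 9. Without ALB the summed levels of the other 8 markers were 39000 to 42530 CPM in Z2, 40740 to 41750 CPM in Z5 and 37630 to 37930 CPM in Z9, against 37730 to 39100 CPM in Empty. The part of these marker levels in the results that follow was not tested.

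Most of the replication genes were lower in the 3 labelled lines than in Empty. In the mean of Z2, Z5 and Z9 minus Empty, 31 of the 40 were called lower and 0 higher by edgeR's quasi-likelihood test at a Benjamini-Hochberg adjusted p under 0.05 over all genes. Among all genes tested, 12.6% were called lower and 13% higher in that comparison. DESeq2 called 32 lower and 0 higher, and PRIM1 was the 1 gene with an unadjusted edgeR p under 0.05 in the higher direction. No share of all genes was taken by DESeq2 or at an unadjusted p. The median log2 fold change of the 40 genes was -0.35, beside 0.0029 for all genes, whose quartiles were -0.12 and 0.14. The largest falls were those of MCM10 (-0.64), CDC6 (-0.63) and CLSPN (-0.62), and the value at the other end was that of PRIM1 (0.16).

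The lower level was seen in each labelled line on its own. Z2 had 23 of the 40 genes called lower (all genes, 11.5%), Z5 had 24 (all genes, 6.68%) and Z9 had 25 (all genes, 9.58%), with median log2 fold changes of -0.34, -0.35 and -0.38. By edgeR and by DESeq2, 0 were called higher in any line, where 12.4% of all genes were called higher in Z2, 8.27% in Z5 and 9.66% in Z9; at an unadjusted p under 0.05, PRIM1 was higher in Z2 and in Z5 and 0 genes were higher in Z9. PRIM1 was called higher by edgeR in some other fits: in Z2 without Z2 a (adjusted p = 0.0147), in Z5 with only the groups compared (0.0475) and without Z2 b (0.0421), and in the mean comparison without Z2 a (0.0423). Calls in all 3 lines were made for 17 of the 40 (42.5%), against 3.8% of all genes, and 11 genes were called in no line. These comparisons share the Empty wells and are not independent of each other.

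**Figure D1:**
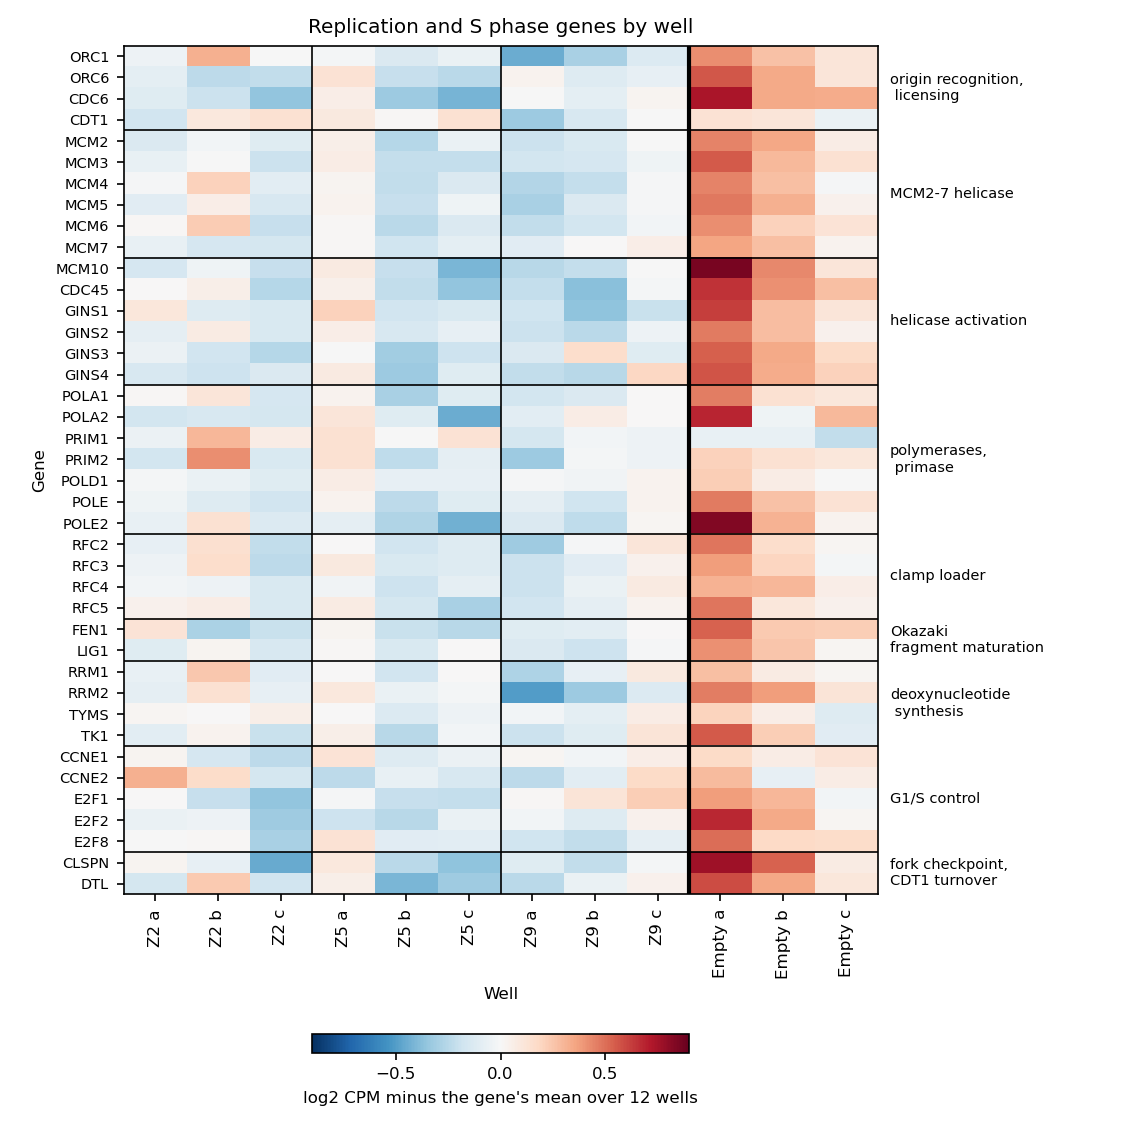
Log2 CPM of each of the 40 genes (rows, by replication step) in each of the 12 wells (columns, Z2, Z5 and Z9 left of Empty), minus the gene's mean over all wells; red is above and blue below that mean. Empty a is the reddest column, Empty b is paler, and Empty c lies nearest to the labelled wells.

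The Empty wells differed among themselves. The mean over the 40 genes of log2 CPM, centred on each gene's mean over 12 wells, was -0.044, 0.024 and -0.17 in Z2, 0.041, -0.19 and -0.14 in Z5 and -0.17, -0.13 and 0.011 in Z9, against 0.46, 0.23 and 0.075 in Empty. Each labelled well thus lay below each Empty well, but Empty a stood well above Empty c, and Empty c was close to the highest labelled well, Z5 a. Empty a has the smallest total count of all libraries and Empty c the largest; the part of depth or of the well in this order was not tested. Without Empty a, 16 of the 40 genes were called lower in the mean comparison, against 6.33% of all genes, and their median log2 fold change was -0.25. Without Empty a, the single-line counts were 9 in Z2, 5 in Z5 and 10 in Z9. The Z2 count was also 15 without Empty b and 11 without Z2 c, the Z5 count 5 without Z5 b and 7 without Z5 c, and the Z9 count 13 without Z9 a and 11 without Z9 b. For these single-line counts the share of all genes called was not taken, so they cannot be set against it.

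For 10 of the 40 genes (25%) the CPM of all 9 labelled wells lay below that of all 3 Empty wells, against 8.31% of all genes, and for 0 of the 40 it lay above. They were CDC6, MCM2, MCM3, MCM10, CDC45, GINS3, GINS4, POLE, FEN1 and E2F8. Set against Empty b and Empty c alone, the count was again 10 (25%), against 9.6% of all genes. For the 40 genes, Empty a was never the lowest Empty well, so leaving it out could not change their count. The genes called in the mean comparison whichever well was left out numbered 16: ORC6 and CDC6, MCM2, MCM3, MCM5 and MCM7, MCM10, CDC45, GINS1, GINS3 and GINS4, POLE, RFC4, FEN1, RRM2 and CLSPN. That list covers wells left out only. With wells summed per line, 15 of the 40 genes were called lower and 16 calls were lost. The steps below give no values of that setting for the 40 genes. The share of all genes was not taken for the list of 16, nor with wells summed per line here or for further lists below. These counts can therefore not be set against it.

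**Figure D2:**
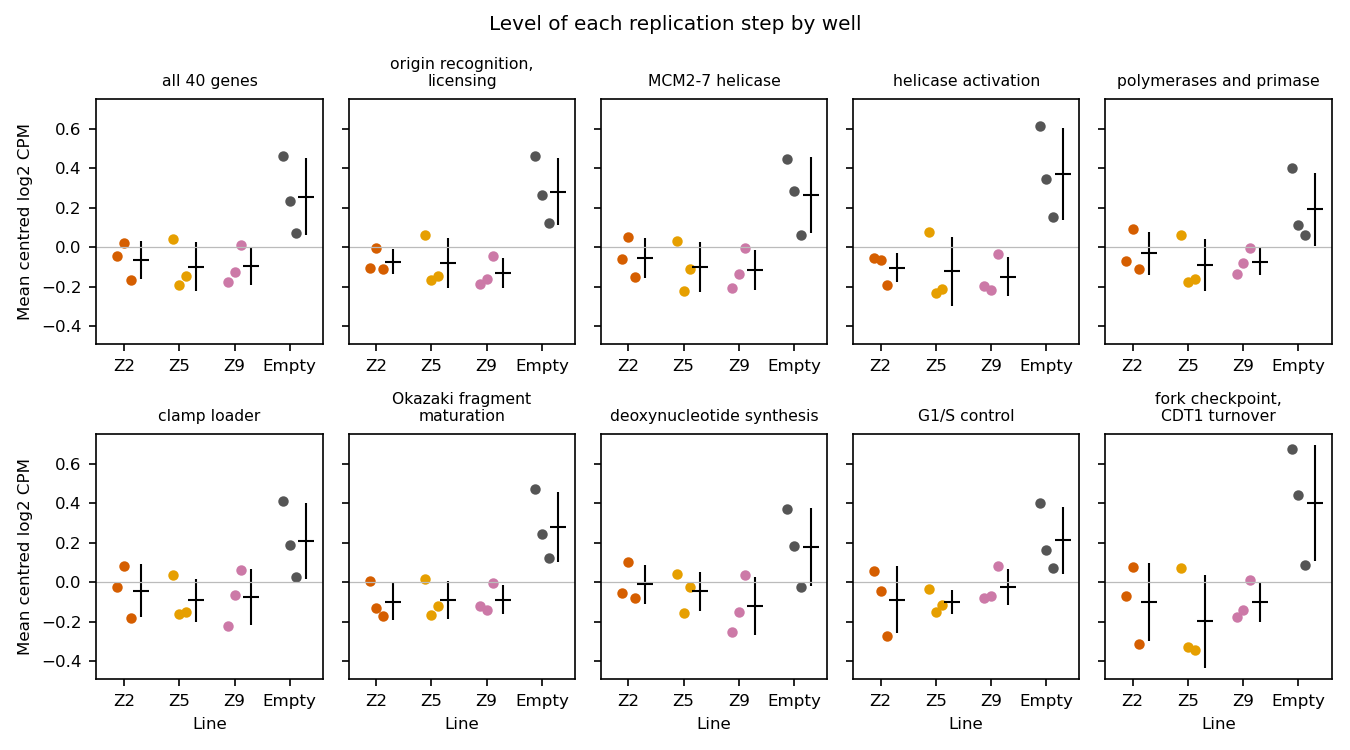
Mean centred log2 CPM of all 40 genes and of the genes of each of the 9 steps, per well; points are wells, bars the mean and SD of 3 wells. Labelled wells lie below the lowest Empty well in the panel of all genes (highest labelled well 0.041, lowest Empty well 0.075), while in the panels of polymerases, clamp loader, nucleotide synthesis and G1/S control the ranges overlap.

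Since these genes are known to be switched on by E2F, the stretch before their start sites was read for E2F sites. RefSeq promoters (GRCh38.p14, 250 bases before to 50 after the start) matched 35 of the 40 genes. They were searched on both strands for the octamers TTTCCCGC, TTTGGCGC, TTTCGCGC and TTTGCCGC. An octamer was present in 20 of the 35 promoters (57.1%), against 908 of 27305 promoters in the table (3.3%) and 673 of the 16199 that belong to genes of the count table (4.2%). The 27 octamers began between 187 bases before and 8 bases after the start, 19 of them within 60 bases of it, and some overlapped across the strands, as in MCM2 and MCM6. The CCAAT box, written CCAAT, was in 19 promoters (54.3%, against 35.7% of all), and the CHR element, written TTTGAA and known from mitotic genes, in 1 (2.9%, against 15.4%). A match is a description of these letters and not a bound site.

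The 8 stretches below are from genes given by well in the following text, and are printed to show where the octamer lies. Of those genes with an octamer, they are the 8 with the smallest adjusted p in the mean comparison, and all 8 were called lower. E2F1, RFC3, CDT1 and TYMS are also given by well and hold an octamer, but are not printed. Each stretch reads 5′ to 3′ in the direction of the gene, with the octamer in capitals. POLE is at chr12:132687343-132687412, minus strand; CDC6 at chr17:40287809-40287893, plus strand; MCM3 at chr6:52284739-52284922, minus strand. LIG1 is at chr19:48170345-48170464, minus strand, and CLSPN at chr1:35769976-35770048, minus strand. GINS1 is at chr20:25407603-25407685, plus strand, DTL at chr1:212035678-212035747, plus strand, and E2F2 at chr1:23531234-23531303, minus strand. In POLE, CLSPN and GINS1 the octamer lies on the other strand, so that its reverse complement is printed.
POLE promoter: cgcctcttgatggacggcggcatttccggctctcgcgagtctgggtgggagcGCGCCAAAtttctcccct
CDC6 promoter: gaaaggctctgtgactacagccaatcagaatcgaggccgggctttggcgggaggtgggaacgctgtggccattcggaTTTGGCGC
MCM3 promoter: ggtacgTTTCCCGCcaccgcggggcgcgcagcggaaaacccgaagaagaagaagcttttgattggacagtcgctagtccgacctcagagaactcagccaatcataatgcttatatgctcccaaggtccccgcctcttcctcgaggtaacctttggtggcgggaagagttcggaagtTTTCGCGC
LIG1 promoter: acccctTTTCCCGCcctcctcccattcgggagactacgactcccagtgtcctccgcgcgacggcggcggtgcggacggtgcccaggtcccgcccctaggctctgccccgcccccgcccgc
CLSPN promoter: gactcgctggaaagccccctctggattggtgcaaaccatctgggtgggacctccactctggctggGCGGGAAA
GINS1 promoter: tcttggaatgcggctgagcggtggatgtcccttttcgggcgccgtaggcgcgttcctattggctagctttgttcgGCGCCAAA
DTL promoter: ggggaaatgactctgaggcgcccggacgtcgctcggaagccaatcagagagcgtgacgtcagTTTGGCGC
E2F2 promoter: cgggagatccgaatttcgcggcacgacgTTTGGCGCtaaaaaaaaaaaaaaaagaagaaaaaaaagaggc

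Of the genes with an octamer 18 of 20 were called lower in the mean comparison, with a median log2 fold change of -0.38, and of those with a promoter but no octamer 9 of 15, with a median of -0.30. CDT1 and TYMS hold an octamer and were not called. Without Empty a the counts were 8 of 20 and 6 of 15. Outside the group, 98 of 525 tested genes with an octamer (18.7%) and 1353 of 10339 without (13.1%) were called lower, with medians of -0.023 and 0.00025; without Empty a these shares were 8.38% and 6.57%. The group was chosen for a function whose genes are known E2F targets, and no test of the octamer was made.

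**Figure D3:**
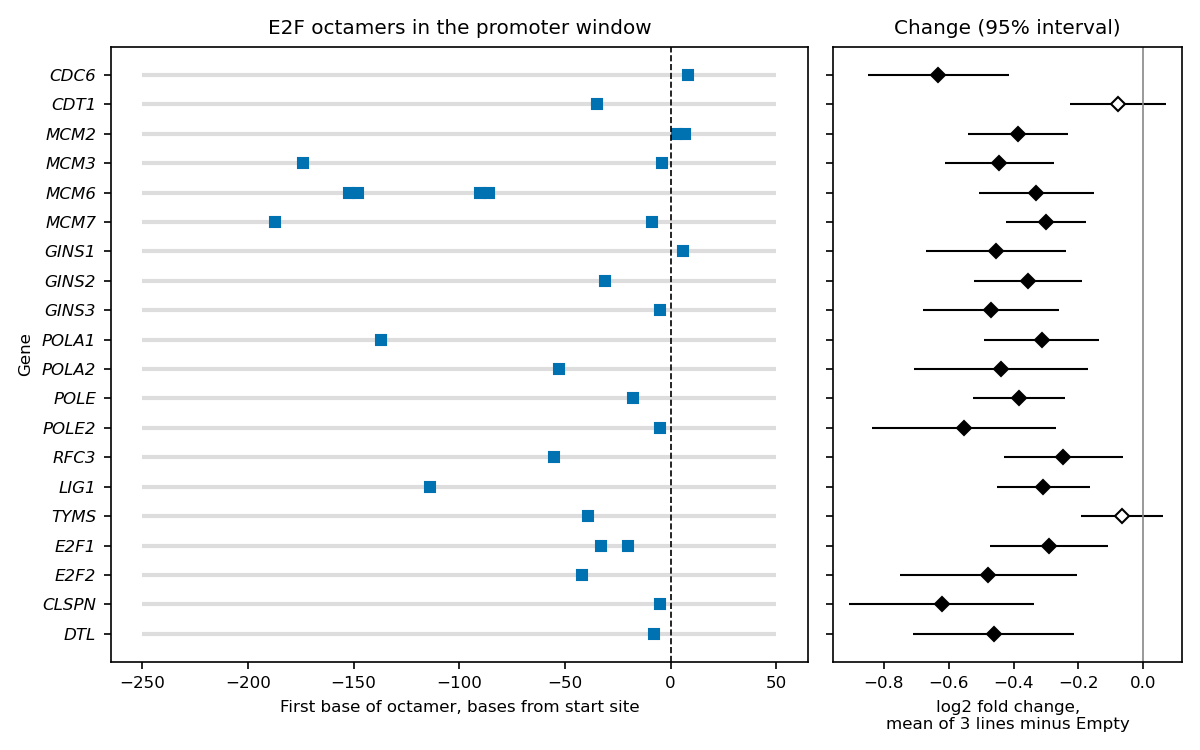
Left, the first base of each E2F octamer in the promoter window of the 20 genes that hold one, in bases from the start site (dashed line). Right, the log2 fold change of the same gene in the mean of Z2, Z5 and Z9 minus Empty with its 95% interval, filled where called; 18 of the 20 are called lower, and CDT1 and TYMS lie near 0.

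Of the licensing genes, ORC1, ORC6 and CDC6 were called lower and CDT1 was not. CDC6, the loading factor that recruits CDT1 and the MCM ring to origins, had 27.8, 26.3 and 23.4 CPM in Z2, 31.3, 23.9 and 22.5 CPM in Z5 and 29.9, 28.2 and 30.5 CPM in Z9, against 50.03, 38.0 and 37.9 CPM in Empty. Every labelled well lay below every Empty well, with Empty a the highest. Over the 3 lines the mean log2 fold change of CDC6 was -0.63 (SE 0.10, 95% interval -0.85 to -0.41, edgeR adjusted p = 0.000552), with -0.70 in Z2, -0.69 in Z5 and -0.51 in Z9. CDT1, its partner, had 34.5, 41.5 and 42.7 CPM in Z2, 41.2, 39.1 and 42.8 CPM in Z5 and 31.0, 35.2 and 38.7 CPM in Z9, against 42.6, 41.9 and 37.3 CPM in Empty. The wells of CDT1 overlapped, and Z9 a was the lowest of all. Its mean log2 fold change was -0.078 (SE 0.070, 95% interval -0.23 to 0.071, edgeR adjusted p = 0.447). ORC6, a subunit of the origin recognition complex, changed by -0.45 (edgeR adjusted p = 0.00118). ORC1, the large subunit of the same complex, changed by -0.35 (edgeR adjusted p = 0.00765, and 0.0874 without Empty a). ORC1 was not called in Z2 and was called in the other 2 lines, with -0.17 in Z2, -0.33 in Z5 and -0.55 in Z9. Of the 4 licensing genes 3 were called, 2 of 4 without Empty a.

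**Figure D4:**
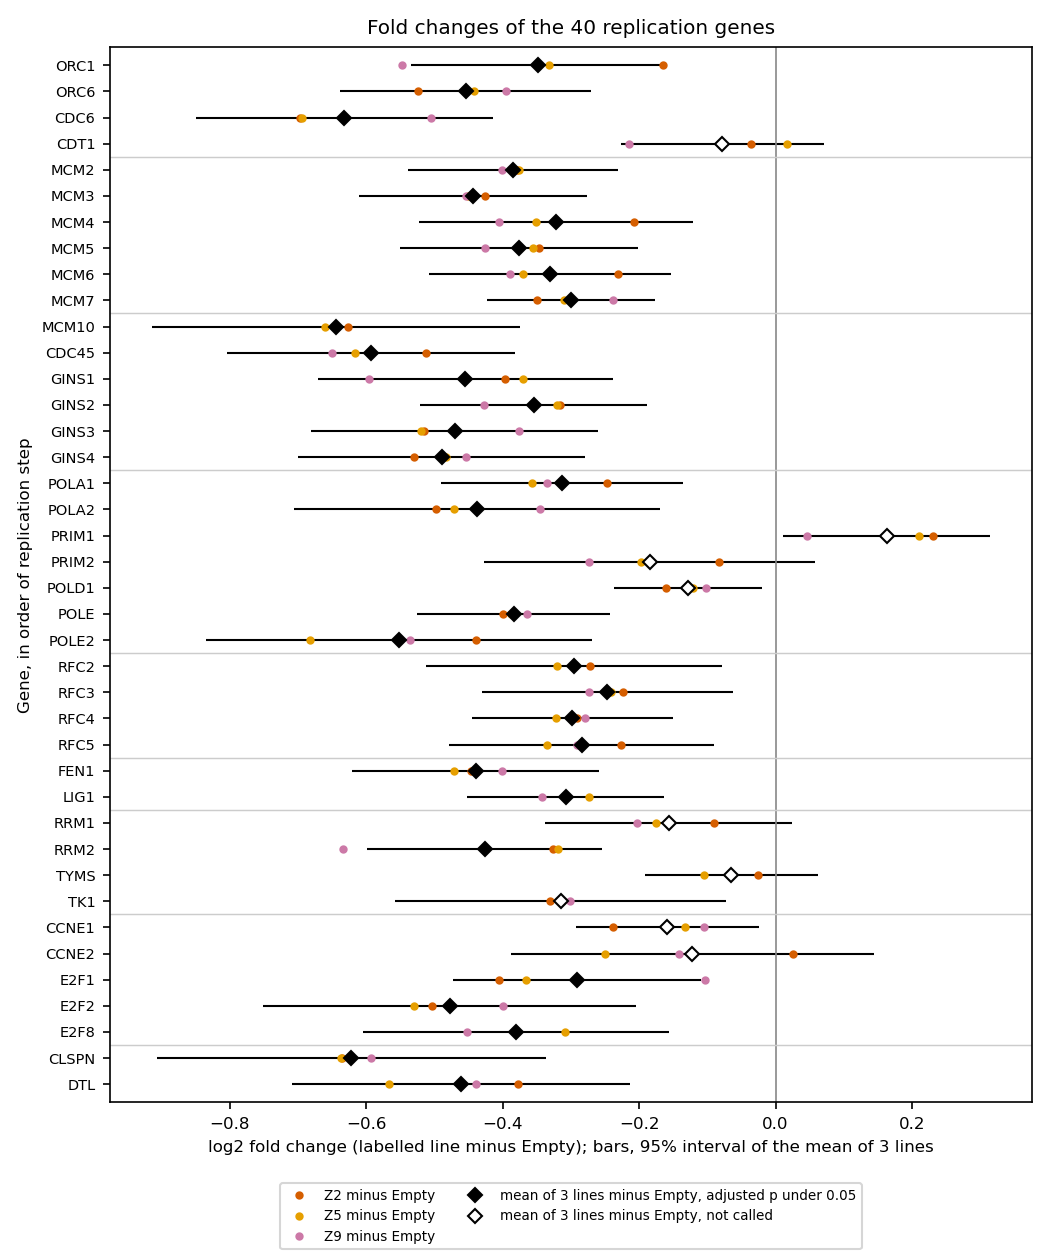
Log2 fold change of each of the 40 genes, in order of replication step. Coloured points are Z2, Z5 and Z9 minus Empty; diamonds are the mean of the 3 lines minus Empty with its 95% interval, filled where the edgeR adjusted p is under 0.05. 39 of the 40 diamonds lie left of 0, and PRIM1 lies right of it.

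The 6 subunits of the MCM ring, the core of the replicative helicase, were all called lower, by similar amounts: log2 fold changes ran from -0.44 for MCM3 to -0.30 for MCM7, with -0.39 for MCM2, -0.38 for MCM5, -0.33 for MCM6 and -0.32 for MCM4. MCM3 had 127, 132 and 116 CPM in Z2, 139, 114 and 115 CPM in Z5 and 119, 119.7 and 129.6 CPM in Z9, against 195, 163 and 146 CPM in Empty. No labelled well reached the lowest Empty well, Empty c, and Z5 a came nearest. Against Empty, MCM3 had a mean log2 fold change of -0.44 (SE 0.078, 95% interval -0.61 to -0.28, edgeR adjusted p = 0.000905), with -0.43 in Z2, -0.45 in Z5 and -0.45 in Z9. MCM4 had 87.9, 102 and 83.1 CPM in Z2, 90.3, 75.9 and 81.2 CPM in Z5 and 73.7, 76.4 and 88.1 CPM in Z9, against 121, 107 and 87.9 CPM in Empty. The MCM4 wells overlapped, since Z2 b, Z5 a, Z9 c and Z2 a were at or above Empty c. For MCM4 the mean log2 fold change was -0.32 (SE 0.093, 95% interval -0.52 to -0.12, edgeR adjusted p = 0.0232), and the edgeR adjusted p was 0.158 without Empty a and 0.0791 without Empty b. MCM6 was also not called without Empty a (edgeR adjusted p = 0.0939), which left 4 of 6 subunits called.

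The subunits form a ring with 1 copy of each, yet their mRNA levels per length were unequal. In CPM per kb of mRNA, the level of MCM3 was 38.9 in Z2, 38.3 in Z5 and 38.2 in Z9, against 52.3 in Empty, and that of MCM6 was 5.02 in Z2, 4.56 in Z5 and 4.497 in Z9, against 5.90 in Empty. MCM7 followed MCM3, with 36.8 in Z2, 37.8 in Z5 and 39.8 in Z9, against 46.9 in Empty (8.94% of its exon bases overlap AP4M1 on the other strand). MCM4 was next, with 28.9 in Z2, 26.1 in Z5 and 25.2 in Z9, against 33.4 in Empty; MCM2 had 22.9 and MCM5 16.0 CPM per kb in Empty. In Empty the SDs over wells were 7.74 for MCM3 and 5.31 for MCM7, and MCM3 was above MCM7 in each Empty well. MCM6 was the lowest in each line. In Z9, MCM7 at 39.8 stood above MCM3 at 38.2 CPM per kb, and it was the higher of the pair in each of the 3 wells, with SDs of 2.28 and 1.89. The difference between these orders was not tested. These levels use the mRNA length of the GENCODE release 29 transcript with the longest coding region, which may not be the form these cells make.

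Helicase activation had 6 of 6 genes called and the lowest median of the steps with more than 2 genes, -0.48. CDC45, which joins the MCM ring and GINS in the active helicase, had 7.99, 8.26 and 6.64 CPM in Z2, 8.23, 6.83 and 6.22 CPM in Z5 and 6.84, 6.12 and 7.84 CPM in Z9, against 12.5, 10.6 and 9.60 CPM in Empty. No labelled well came up to Empty c, the lowest Empty well. CDC45 had a mean log2 fold change of -0.59 (SE 0.10, 95% interval -0.80 to -0.38, edgeR adjusted p = 0.000353). GINS1, a subunit of the GINS complex, had 21.2, 18.2 and 17.9 CPM in Z2, 22.8, 17.5 and 18.0 CPM in Z5 and 17.4, 15.4 and 17.2 CPM in Z9, against 30.4, 24.0 and 21.3 CPM in Empty. Z5 a was the only labelled well above Empty c, and the Z9 wells were the 3 lowest. In the mean comparison the log2 fold change of GINS1 was -0.45 (SE 0.10, 95% interval -0.67 to -0.24, edgeR adjusted p = 0.0045), with -0.40 in Z2, -0.37 in Z5 and -0.60 in Z9.

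MCM10, which helps to start unwinding at loaded origins, had the largest fall of the group and is given by well for that reason, after its values were seen: 7.05, 7.65 and 6.79 CPM in Z2, 8.30, 6.79 and 5.89 CPM in Z5 and 6.60, 6.76 and 7.84 CPM in Z9, against 14.2, 10.6 and 8.49 CPM in Empty. The highest labelled well, Z5 a, lay just under Empty c, while Empty a was far above the other wells. Over the 3 lines the mean log2 fold change of MCM10 was -0.64 (SE 0.13, 95% interval -0.91 to -0.37, edgeR adjusted p = 0.00179), and -0.43 without Empty a (edgeR adjusted p = 0.0179). GINS2, GINS3 and GINS4, the other subunits of GINS, had mean log2 fold changes of -0.35, -0.47 and -0.49. GINS2 was not called without Empty a (edgeR adjusted p = 0.0585). Per kb of mRNA, the order in Empty was GINS1 at 7.77, GINS2 at 6.45, GINS3 at 3.35 and GINS4 at 2.81 CPM per kb, with SDs of 1.45, 0.950, 0.430 and 0.359. GINS1 was above GINS2 in each Empty well, at 9.37 and 7.38 CPM per kb in Empty a, 7.39 and 6.48 in Empty b and 6.55 and 5.48 in Empty c.

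**Figure D5:**
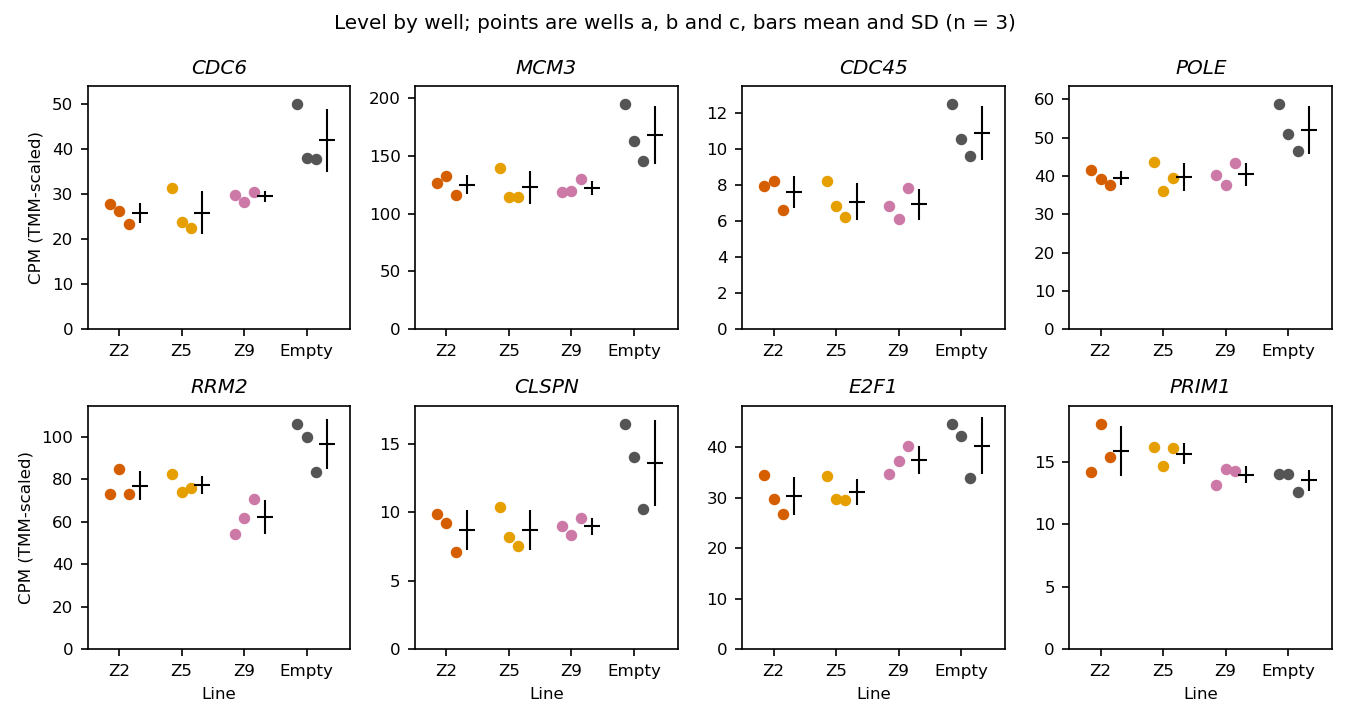
CPM of 8 of the genes in each well (points) with the mean and SD of 3 wells (bars), Z2, Z5 and Z9 left of Empty. For CDC6, MCM3, CDC45 and POLE the labelled wells lie below all Empty wells. RRM2 is lowest in Z9, and 8 of 9 labelled wells of PRIM1 lie above all Empty wells. E2F1 overlaps Empty in each labelled line, with all Z9 wells, Z2 a and Z5 a above Empty c.

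Of the 7 polymerase and primase genes 4 were called lower. POLE, the catalytic subunit of polymerase epsilon, which extends the leading strand, had 41.5, 39.2 and 37.8 CPM in Z2, 43.6, 36.2 and 39.5 CPM in Z5 and 40.3, 37.6 and 43.5 CPM in Z9, against 58.8, 51.0 and 46.5 CPM in Empty. All 9 labelled wells lay below Empty c, with Z5 a and Z9 c the nearest. Against Empty, POLE had a mean log2 fold change of -0.38 (SE 0.067, 95% interval -0.53 to -0.24, edgeR adjusted p = 0.000534). POLE2, the second subunit of the same enzyme, changed by -0.55 (edgeR adjusted p = 0.00603, and 0.121 without Empty a). POLD1, the catalytic subunit of polymerase delta, which extends the lagging strand, had a log2 fold change of -0.13 and was not called (edgeR adjusted p = 0.077). POLD1 was called without Empty c (edgeR adjusted p = 0.0348) and without Z5 a (0.0465). Without Empty a, POLE was the 1 gene of the 7 still called.

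Polymerase alpha and primase act as 1 complex, of whose 4 subunits POLA1 and POLA2 were called lower and both primase subunits were not. POLA1, the catalytic subunit, changed by -0.31 (edgeR adjusted p = 0.011) and POLA2, the regulatory subunit, by -0.44 (edgeR adjusted p = 0.0177). Without Empty a these edgeR adjusted p-values were 0.161 and 0.245. PRIM2, the large primase subunit, had 12.5, 18.7 and 12.7 CPM in Z2, 15.4, 11.9 and 13.2 CPM in Z5 and 11.2, 13.8 and 13.5 CPM in Z9, against 16.1, 15.4 and 14.995 CPM in Empty. Z2 b was higher than any other well for PRIM2, and 7 of the other labelled wells lay below all Empty wells. PRIM2 had a mean log2 fold change of -0.18 (SE 0.11, 95% interval -0.43 to 0.058, edgeR adjusted p = 0.258), and its edgeR adjusted p was 0.0154 without Z2 b. PRIM1, the small catalytic subunit, is given by well after its values were seen, as the gene with the highest fold change: 14.2, 18.0 and 15.4 CPM in Z2, 16.1, 14.7 and 16.1 CPM in Z5 and 13.2, 14.5 and 14.2 CPM in Z9, against 14.0, 14.0 and 12.6 CPM in Empty. In 8 of 9 labelled wells PRIM1 lay above all Empty wells. Its mean log2 fold change was 0.16 (SE 0.072, 95% interval 0.011 to 0.31, edgeR adjusted p = 0.107); without Z2 a the edgeR adjusted p was 0.0423. Exons of other genes share 6.77% of the exon bases of PRIM1, so part of its counts is uncertain.

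The clamp loader genes had 4 of 4 calls in the mean comparison, with the narrowest range of the steps with more than 2 genes, -0.30 to -0.25. RFC4, a subunit of the complex that opens the PCNA clamp, had 13.3, 13.1 and 12.3 CPM in Z2, 13.2, 11.8 and 12.8 CPM in Z5 and 11.8, 12.9 and 14.3 CPM in Z9, against 16.7, 16.6 and 14.0 CPM in Empty. Z9 c was the only labelled well above Empty c, and Empty a and Empty b stood above all labelled wells. In the mean comparison the log2 fold change of RFC4 was -0.30 (SE 0.070, 95% interval -0.45 to -0.15, edgeR adjusted p = 0.00471). RFC3, another subunit, had 18.9, 21.7 and 16.6 CPM in Z2, 20.7, 17.8 and 18.1 CPM in Z5 and 17.1, 18.2 and 20.0 CPM in Z9, against 25.3, 22.4 and 19.3 CPM in Empty. Its wells overlapped, since Z2 b, Z5 a and Z9 c exceeded Empty c. For RFC3 the mean log2 fold change was -0.25 (SE 0.087, 95% interval -0.43 to -0.063, edgeR adjusted p = 0.0469). RFC2 (-0.30, edgeR adjusted p = 0.0448) and RFC5 (-0.28, edgeR adjusted p = 0.0315) were also near the threshold. Without Empty a, RFC4 was the 1 subunit still called, and RFC2, RFC3 and RFC5 had edgeR adjusted p-values of 0.368, 0.332 and 0.35. RFC2 and RFC3 were not called either without Empty b, Z2 a, Z2 c, Z5 b, Z5 c, Z9 a or Z9 b, nor RFC5 without Z2 c, Z5 b, Z5 c or Z9 a.

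Both Okazaki fragment genes were called lower. FEN1, the nuclease that cuts the flap left by primer displacement, had 25.5, 19.1 and 20.3 CPM in Z2, 23.8, 20.4 and 19.7 CPM in Z5 and 21.7, 21.8 and 23.5 CPM in Z9, against 33.8, 27.5 and 27.3 CPM in Empty. Every labelled well was below every Empty well, and Z2 a was the nearest to them. Over the 3 lines the mean log2 fold change of FEN1 was -0.44 (SE 0.085, 95% interval -0.62 to -0.26, edgeR adjusted p = 0.00145); exons of other genes share 8.68% of its exon bases. LIG1, the ligase that seals the fragments, had 24.5, 27.0 and 24.0 CPM in Z2, 26.7, 24.1 and 26.6 CPM in Z5 and 24.2, 23.3 and 26.3 CPM in Z9, against 35.2, 31.5 and 26.9 CPM in Empty. Z2 b was slightly above Empty c, and the other labelled wells lay below all Empty wells. Against Empty, LIG1 had a mean log2 fold change of -0.31 (SE 0.069, 95% interval -0.45 to -0.16, edgeR adjusted p = 0.00327), and without Empty a its edgeR adjusted p was 0.0598.

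Deoxynucleotide synthesis had 1 of 4 genes called, RRM2, the small subunit of ribonucleotide reductase, which is known to be made mainly in S phase. RRM2 had 72.9, 84.7 and 73.2 CPM in Z2, 82.3, 73.8 and 76.0 CPM in Z5 and 54.4, 61.5 and 70.8 CPM in Z9, against 106, 100.1 and 83.5 CPM in Empty. Z2 b was the only labelled well above Empty c, and the Z9 wells were the 3 lowest of the 12. RRM2 had a mean log2 fold change of -0.43 (SE 0.080, 95% interval -0.60 to -0.25, edgeR adjusted p = 0.00157), with -0.33 in Z2, -0.32 in Z5 and -0.63 in Z9. RRM1, the large subunit, which is known to vary less over the cycle, had a log2 fold change of -0.16 and was not called (edgeR adjusted p = 0.195). Per kb of mRNA, RRM2 was at 21.0 in Z2, 21.1 in Z5 and 16.9 in Z9, against 26.3 in Empty, and RRM1 at 11.1 in Z2, 10.5 in Z5 and 10.3 in Z9, against 11.9 in Empty, so that RRM2 was the higher of the 2 in each line.

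TYMS, which makes thymidylate from deoxyuridylate, had 26.0, 25.7 and 26.6 CPM in Z2, 25.7, 23.5 and 24.9 CPM in Z5 and 25.2, 24.1 and 26.9 CPM in Z9, against 29.4, 26.7 and 23.6 CPM in Empty. The wells of TYMS overlapped, with Empty a the highest and Z5 b the lowest. Its mean log2 fold change was -0.065 (SE 0.060, 95% interval -0.19 to 0.062, edgeR adjusted p = 0.461), and 0.013 without Empty a. Exons of ENOSF1 and TYMSOS on the other strand share 46.56% of the exon bases of TYMS, so its counts are uncertain. TK1, the thymidine kinase of S phase, had 18.3, 19.9 and 17.0 CPM in Z2, 20.3, 16.4 and 19.1 CPM in Z5 and 17.1, 18.1 and 21.1 CPM in Z9, against 28.6, 22.7 and 18.2 CPM in Empty. Empty a stood apart for TK1, and Empty c lay among the labelled wells. TK1 had a mean log2 fold change of -0.32 (SE 0.11, 95% interval -0.56 to -0.072, edgeR adjusted p = 0.056) and so missed the threshold; it was called without Empty c (edgeR adjusted p = 0.0029), without Z9 c (0.0379) and without Z5 a (0.0494).

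In G1/S control, 3 of 5 genes were called, the E2F factors, and neither cyclin E. E2F2, an activating E2F, had 2.10, 2.13 and 1.75 CPM in Z2, 1.93, 1.84 and 2.10 CPM in Z5 and 2.16, 2.02 and 2.26 CPM in Z9, against 3.53, 2.79 and 2.22 CPM in Empty. Z9 c was the only labelled well above Empty c, and the Empty wells spread the most. Against Empty, the mean log2 fold change of E2F2 was -0.48 (SE 0.13, 95% interval -0.75 to -0.21, edgeR adjusted p = 0.0118). E2F1, another activating E2F, had 34.5, 29.8 and 26.8 CPM in Z2, 34.2, 29.7 and 29.6 CPM in Z5 and 34.7, 37.4 and 40.2 CPM in Z9, against 44.6, 42.3 and 33.9 CPM in Empty. All Z9 wells of E2F1 lay above Empty c, whereas 4 of the wells of Z2 and Z5 lay below all Empty wells. Over the 3 lines the mean log2 fold change of E2F1 was -0.29 (SE 0.085, 95% interval -0.47 to -0.11, edgeR adjusted p = 0.021), with -0.41 in Z2, -0.37 in Z5 and -0.10 in Z9. E2F8, an atypical E2F that represses, changed by -0.38 (edgeR adjusted p = 0.0143).

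The calls of all 3 E2F genes were lost without Empty a, where the edgeR adjusted p was 0.165 for E2F2, 0.157 for E2F1 and 0.155 for E2F8. E2F1 was not called either without Empty b (edgeR adjusted p = 0.1) or without Z2 b (0.0583). CCNE2, a cyclin E, had 3.10, 2.79 and 2.22 CPM in Z2, 2.10, 2.36 and 2.24 CPM in Z5 and 2.10, 2.32 and 2.80 CPM in Z9, against 3.02, 2.36 and 2.60 CPM in Empty. The wells of CCNE2 overlapped widely, with Z2 a the highest and Z5 a and Z9 a the lowest. Its mean log2 fold change was -0.12 (SE 0.13, 95% interval -0.39 to 0.14, edgeR adjusted p = 0.515). INTS8 on the other strand shares 37.05% of the exon bases of CCNE2, so its counts are uncertain. CCNE1, the other cyclin E, had a log2 fold change of -0.16 and was not called (edgeR adjusted p = 0.0774). CCNE1 was called without Z2 a (edgeR adjusted p = 0.0266) and without Z5 a (0.0353), and in Z2 alone (0.0373).

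The fork checkpoint and CDT1 turnover genes had the lowest median of the 9 steps, -0.54 over 2 genes. CLSPN encodes claspin, which carries the stalled-fork signal from ATR to CHK1, and had 9.87, 9.22 and 7.09 CPM in Z2, 10.4, 8.19 and 7.56 CPM in Z5 and 9.02, 8.35 and 9.59 CPM in Z9, against 16.5, 14.1 and 10.2 CPM in Empty. Z5 a was the only labelled well above Empty c, and Empty a and Empty b stood well above the rest. Against Empty, CLSPN had a mean log2 fold change of -0.62 (SE 0.13, 95% interval -0.91 to -0.34, edgeR adjusted p = 0.00378), with -0.64 in Z2, -0.64 in Z5 and -0.59 in Z9; without Empty a it was -0.46 (edgeR adjusted p = 0.0336). DTL, the subunit of the ubiquitin ligase that removes CDT1 in S phase, had 9.62, 12.6 and 9.50 CPM in Z2, 11.1, 8.06 and 8.59 CPM in Z5 and 9.07, 10.3 and 11.02 CPM in Z9, against 16.1, 13.7 and 11.5 CPM in Empty. Z2 b alone of the labelled wells exceeded Empty c. DTL had a mean log2 fold change of -0.46 (SE 0.12, 95% interval -0.71 to -0.21, edgeR adjusted p = 0.00931), and its edgeR adjusted p was 0.0879 without Empty a.

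Between the labelled lines, no replication gene was called. Z9 minus Z2 had 0 of 40 called by edgeR, against 5.17% of all genes, 4 at an unadjusted p under 0.05, and 3 by DESeq2. Z9 minus Z5 had 0 (all genes, 1.52%), 3 at an unadjusted p under 0.05 and 1 by DESeq2, and Z5 minus Z2 had 0 by each of these (all genes, 0.00654%). The shares of all genes are those of edgeR at an adjusted p under 0.05. They are not a measure for the counts at an unadjusted p or by DESeq2. The smallest adjusted p-values in Z9 minus Z2 were those of ORC1, RRM2 and E2F1. ORC1 is given by well after its values were seen: it had 9.02, 11.6 and 9.28 CPM in Z2, 9.21, 8.501 and 8.94 CPM in Z5 and 6.80, 7.61 and 8.55 CPM in Z9, against 12.4, 11.2 and 10.0 CPM in Empty, with a log2 difference of -0.38 in Z9 minus Z2 (95% interval -0.62 to -0.15, edgeR adjusted p = 0.055). Z9 a and Z9 b were the lowest wells of ORC1, Z9 c lay beside Z5 b, and Z2 b lay among the Empty wells.

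RRM2 was -0.31 in Z9 minus Z2 (95% interval -0.52 to -0.089, edgeR adjusted p = 0.089) and -0.31 in Z9 minus Z5 (95% interval -0.53 to -0.10, edgeR adjusted p = 0.162). E2F1 had the opposite sign, with 0.30 in Z9 minus Z2 (95% interval 0.075 to 0.53, edgeR adjusted p = 0.103) and 0.26 in Z9 minus Z5 (edgeR adjusted p = 0.264). Without Z2 a, ORC1, CDT1 and E2F1 were called in Z9 minus Z2, at edgeR adjusted p of 0.0189, 0.0328 and 0.0228. The printed intervals of ORC1, RRM2 and E2F1 exclude 0 before adjustment, although their adjusted p-values were not under 0.05. Like levels in the 3 lines were therefore not shown.

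Further genes of the same processes were called in part. Of 33 further replication machinery genes, 15 were called lower and 2 higher in the mean comparison (median -0.17), and 6 lower without Empty a. Among all genes, 12.6% were called lower and 13% higher in that comparison, and 6.33% lower without Empty a. The smallest adjusted p-values were those of TICRR, which helps to bring CDC45 to loaded origins (-0.45), POLD2, a polymerase delta subunit (-0.24), DBF4, the activator of the CDC7 kinase (-0.31), and RECQL4, a helicase needed for initiation (-0.37). MCMBP (0.13) and POLD4 (0.31) were the 2 higher ones, and neither was called without Empty a. Of 12 further deoxynucleotide genes, 4 were called lower, SHMT1 (-0.37), CTPS1 (-0.41), DTYMK (-0.36) and NME1 (-0.26), and 1 higher, TK2, the mitochondrial thymidine kinase (0.21). DTYMK, NME1 and TK2 were not called without Empty a (edgeR adjusted p = 0.0549, 0.101 and 0.227). With wells summed per line, 6 of the 33 and 2 of the 12 were called lower; POLD2, DBF4, SHMT1 and NME1 were not (edgeR adjusted p = 0.105, 0.0605, 0.0516 and 0.0901).

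Among 25 tested G1/S regulators outside the group, 14 were called lower and 4 higher (median -0.19). Of all genes 12.6% were called lower and 13% higher, so the 4 higher calls are near the share of all genes. Without Empty a, 6.33% of all genes were called lower. SKP2, which marks the inhibitor p27 for destruction, fell most (-0.63, edgeR adjusted p = 2.75e-05), with MYBL2 (-0.38), a factor that drives late cell cycle genes, and CDC25A (-0.41), the phosphatase that activates CDK2. CCND2, a D cyclin, rose (0.75, edgeR adjusted p = 0.00085), at a mean of 2.05 CPM in the labelled lines, against 1.22 CPM in Empty. The other higher genes, CCND1 (0.21), RBL2 (0.18) and the CDK inhibitor gene CDKN1A (0.18), were not called without Empty a (edgeR adjusted p = 0.0601, 0.102 and 0.0935), when 7 were called lower and 1, CCND2, higher.

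Of 17 genes of the replication checkpoint and of alternative clamp loaders, 7 were called lower and 0 higher by edgeR (0 higher also at an unadjusted p under 0.05), with a median of -0.21. Of all genes 12.6% were called lower, and 6.33% without Empty a. These included FANCD2 (-0.43) and FANCI (-0.29), which act on blocked forks, and CHTF18 (-0.40), which loads the clamp in another RFC complex. Without Empty a, 2 of the 17 were called; FANCI had an edgeR adjusted p of 0.164. With wells summed per line, 1 of the 17 was called; the edgeR adjusted p was 0.203 for FANCI and 0.055 for CHTF18. Of 8 genes of chromatin assembly behind the fork, 7 were called lower (median -0.39), and 6 without Empty a. UHRF1, which guides maintenance methylation, changed by -0.86, CHAF1A, a subunit of the histone chaperone CAF-1, by -0.72, ASF1A, another histone chaperone, by -0.41, and DNMT1, the maintenance methyltransferase, by -0.31. UHRF1 and CHAF1A lie in the distal 6 Mb of 19p and NASP, a histone chaperone, in the distal 90 Mb of 1p, regions chosen after these data were seen. Without these 3 genes, 4 of 5 were called lower, with a median of -0.38.

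Mitotic genes, which are expressed after S phase, were lower too. Of 22 such genes 21 were called lower (median -0.38), and 15 without Empty a, against 12.6% and 6.33% of all genes. MKI67, the gene of the proliferation marker Ki-67, had 48.6, 51.2 and 45.9 CPM in Z2, 52.5, 46.3 and 47.9 CPM in Z5 and 48.1, 42.5 and 51.4 CPM in Z9, against 74.5, 66.2 and 61.6 CPM in Empty. Each labelled well of MKI67 lay below each Empty well, and its mean log2 fold change was -0.48 (SE 0.062, 95% interval -0.61 to -0.35, edgeR adjusted p = 2.58e-05). KIF2C, a kinesin of the spindle, changed by -0.41, BIRC5, which encodes survivin, by -0.45, and CDC20, an activator of the anaphase-promoting complex, by -0.40. The mean centred log2 CPM of the 22 genes was -0.080, 0.00066 and -0.19 in Z2, 0.092, -0.13 and -0.12 in Z5 and -0.15, -0.22 and -0.042 in Z9, against 0.43, 0.26 and 0.15 in Empty, and so had Empty a at the top and Empty c nearest to the labelled wells, as for the replication genes. Whether the share of cycling cells differed between the wells was not tested. The other genes of these lists were chosen, as were the 40, with earlier results of these data known.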

How the data were processed

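RNA of 12 HepG2 wells was measured by RNA sequencing. The values deposited by the authors are raw counts for each gene symbol; the submitters' processing notes name hg38, STAR and featureCounts. Tool versions, annotation, strand setting and treatment of multi-mapping reads were not given in the sources used here, so counts of overlapping genes are uncertain. Samples were grouped by title. Between wells of a line the chi-square of the counts (genes with at least 10) was 6.01 to 43.0 per degree of freedom, well above sampling noise, so each well was kept as 1 sample. The highest values were those of Z2 b, 43.0 against Z2 a and 30.2 against Z2 c, and the next was 19.5, for Z9 a against Z9 c. The part of this in the gene levels of Z2 b was not tested. The letters of the wells are not stated to pair lines, and deviations of same-lettered wells correlated between -0.101 and 0.173, so no pairing was used.

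The test was run in R 4.3.3 with edgeR 4.0.16, using filterByExpr by group, TMM scaling and a robust quasi-likelihood fit with 4 group means on all 12 libraries (8 residual degrees of freedom, common biological coefficient of variation 0.0696). Benjamini-Hochberg adjustment ran over all 15289 genes of each comparison, and an adjusted p under 0.05 was a call. SE is the log2 fold change over the square root of F. Centred levels are log2 CPM with a prior count of 2. Alternatives included DESeq2 1.42.0, other filters and each well left out. Counts by step, list and octamer, and of wells that do not overlap, were also taken without Empty a, and counts by list without 2 chromosomal regions, alternatives added after the data were seen.

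The 40 genes and all other lists were chosen with earlier results of these data known, so no list is tested. The genes given by well are, per step, those with the smallest and the largest adjusted p in the mean comparison; ORC1, MCM10, PRIM1, TK1, E2F1 and MKI67 were added after their values were seen. From each further list the genes with the 4 smallest adjusted p are named, besides every gene called higher; 1 gene that this rule gives is not reported here.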

Additional observations from a re-analysis of the deposited data

How the results depend on the processing

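In the mean of Z2, Z5 and Z9 minus Empty, where 31 of 40 genes were called, the count was 31 with DESeq2 size factors, 32 with the DESeq2 Wald test, 30 with a minimum of 1 CPM in 3 libraries, 28 with no filter and 15 with wells summed per line. With 1 well left out it ran from 16 (without Empty a) to 34. The single-line counts under omission ran from 9 to 27 in Z2, from 5 to 30 in Z5 and from 10 to 30 in Z9. With the replicate block (the well letter as a term) the counts were 32 for the mean, 24 for Z2, 26 for Z5 and 23 for Z9. The letters share only a name. Z9 minus Z2, with 0 calls, had 3 by DESeq2, 1 with no filter, 2 with the replicate block and 0 to 3 with 1 well left out, and Z9 minus Z5 had 1 by DESeq2 and 1 with only the groups compared. The cause of these moves was not tested. With 1 well left out, the median of the mean comparison ran from -0.46 to -0.25. The share of all genes called in these alternatives was taken only for the mean comparison without Empty a (6.33% lower).

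Genes near 0 changed sign when 1 well was left out, none of them called: CDT1 ran from -0.10 to 0.054 in Z2 and from -0.048 to 0.051 in Z5, PRIM2 in Z2 from -0.30 to 0.020, CCNE2 in Z2 from -0.085 to 0.15, ZHX3 in Z5 from -0.016 to 0.0057 and PRIM1 in Z9 from -0.0080 to 0.086. TYMS ran from -0.11 to 0.052 in Z2, from -0.15 to 0.015 in Z9 and from -0.15 to 0.013 in the mean. CLSPN, E2F2 and ORC1 lie in the distal 90 Mb of 1p, and 0 of the 40 genes lie in the distal 6 Mb of 19p; both regions were chosen in earlier work after these data were seen. Without those 3 genes, 28 of 37 were called, with a median of -0.33. The lowest count of any of the 40 genes in a well was 93 (E2F2).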
